A study of Mus musculus with 26 samples.

Results

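Trimethylation of lysine 27 of histone H3 (H3K27me3) was measured at the promoters of 1 line of mouse induced pluripotent stem (iPS) cells and set against E14 and V6.5, a pair of embryonic stem (ES) cell lines. These are 6 of the 26 samples of the series, 2 arrays for each of 3 lines. The members were taken by mark and line: all H3K27me3 promoter arrays of the iPS line and of both ES lines. The 2 arrays of a line carry different promoters, so each line is 1 replicate. The iPS and ES lines were grown in ES cell medium, and chromatin from formaldehyde-fixed cells was immunoprecipitated, amplified and hybridised in Cy5 against input DNA in Cy3. The donor cells and reprogramming factors of the iPS line are not given in the sources used here, and 1 line cannot stand for iPS cells in general. H3K27me3 of male (MEF1) and female (MEF2) mouse embryonic fibroblasts, H3K4me3 of the same 5 lines, and RNA of feeder-dependent V6.5 ES cells, iPS cells and female MEFs (2 arrays each) served as further readouts. The series design asks how close iPS cells lie to ES cells and to fibroblasts.

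H3K27me3 is deposited by Polycomb repressive complex 2, whose catalytic subunit is Ezh2, and is found at genes held silent. In ES cells it covers promoters of developmental regulators such as the Hox genes, often together with H3K4me3, found at promoters that are active or poised. Fibroblasts keep the mark on genes of other lineages, among them genes of the pluripotent state, and reprogramming involves a reset of both patterns.

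A promoter's level is the mean, over its probes within 1000 bp of the transcription start, of the log2 ratio of immunoprecipitate over input, centred on each array's median. In this unit 0 is the typical probe of the array. Levels were obtained for 15142 promoters, 7665 on the first array and 7477 on the second, with a median of 10 probes each. At least 93.7% of the probes of each array were well above background. The median absolute deviation of the probes was 0.29 on both E14 arrays, 0.48 and 0.45 on the V6.5 arrays, 0.42 on both iPS arrays and between 0.51 and 0.71 on the MEF arrays. E14 thus had a compressed scale. The V6.5 and iPS arrays share a date of feature extraction, and E14 shares its date with MEF1, so the iPS and V6.5 comparison is the one within such a date. The first iPS array was scanned on E14's date and the second on V6.5's.

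The pluripotent state of the cells was checked by markers, of which the promoters of Nanog, Dppa5a, Fbxo15 and Dcn were not measured. Pou5f1, the gene of Oct4, had RNA levels of 4.89 and 4.58 on the ES arrays, 4.83 and 4.77 on the iPS arrays and -4.64 and -0.63 on the MEF arrays (log2 relative to each array's 75th percentile). Over 9 pluripotency markers the log2 of the summed RNA signal was 8.25 and 8.59 in ES cells, 8.17 and 8.13 in iPS cells, and 0.44 and 1.58 in MEFs. The summed level of the iPS cells was thus near that of the ES cells. Of the 9 markers, 3 were lower in iPS than on both ES arrays and 2 were higher. Esrrb was among the lower, at 5.64 and 5.37 in ES cells and 4.57 and 4.46 in iPS cells. The sum over 8 fibroblast markers was 5.88 and 6.21 in ES cells, 4.28 and 4.09 in iPS cells, and 9.84 and 8.84 in MEFs. The iPS arrays were thus the lowest. Extraembryonic endoderm, a lineage that arises beside the pluripotent cells, was read by 6 markers. Their sum was 2.39 and 2.88 in ES cells, 0.07 and -0.02 in iPS cells, and 3.01 and 2.67 in MEFs. The MEF level was thus near that of the ES cells, so this sum is not particular to the lineage.

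The promoter landscape of the iPS line lay about as close to each ES line as the ES lines lay to each other. Across the 15142 promoters, levels correlated at r = 0.946 between iPS and E14, 0.939 between iPS and V6.5 and 0.949 between E14 and V6.5, against 0.755 between iPS and MEF1 and 0.748 between iPS and MEF2. The promoters are not independent replicates, and the points share probe sequence and amplification biases. The standard deviation of the difference was 0.22 log2 units for iPS and E14 and 0.24 for iPS and V6.5, both below the 0.32 for the ES pair. At least 1 log2 unit separated iPS from E14 at 8 promoters and iPS from V6.5 at 13, whereas it separated the ES lines at 142, all higher in V6.5. Much of that difference between the ES lines is one of scale: the slope was 0.55 for E14 on V6.5, 1.35 for iPS on E14 and 0.78 for iPS on V6.5. With each array brought to a common median absolute deviation the ES lines lay 1 unit apart at 6 promoters. The shared part of the top 1000 promoters, a rank measure, was 78.7% for iPS and E14, 76.9% for iPS and V6.5, 76.7% for the ES pair and 54.6% for iPS and MEF1.

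**Figure D1:**
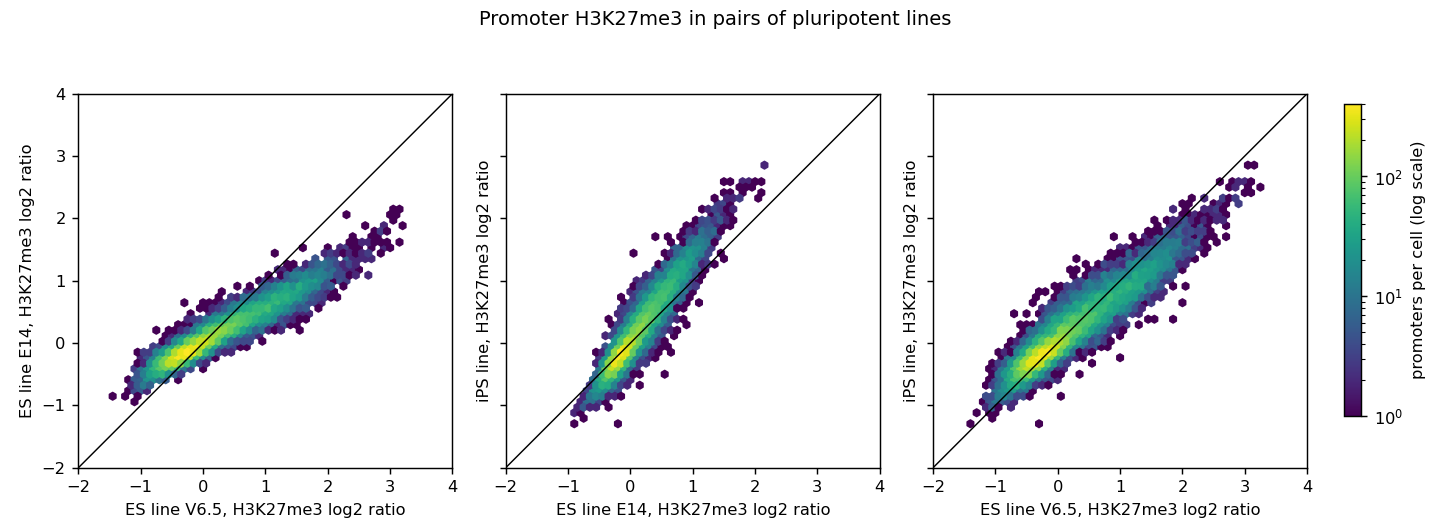
Promoter H3K27me3 of 15142 promoters in the 3 pairs of pluripotent lines, as centred log2 ratios on both axes, with the number of promoters per cell in colour (log scale) and the line of equality in black. The cloud is narrow in each pair and its slope differs, with E14 (slope 0.55 on V6.5) the most compressed and iPS in between.

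The number of promoters with a high level differed between the 3 pluripotent lines. A promoter was called marked at a level of 1 or more, which held for 403 promoters in E14, 1925 in V6.5 and 1325 in iPS. Of the 1925 promoters marked in V6.5, 62.6% (exact binomial 95% interval 60.4 to 64.8%) were marked in iPS and 20.9% (19.1 to 22.8%) in E14, with medians of 1.38 in V6.5, 1.11 in iPS and 0.79 in E14. The interval covers counting error only. Of the 403 promoters marked in E14, 100% were marked in V6.5 and 99.01% (97.5 to 99.7%) in iPS. Under the common median absolute deviation, 75.6% of V6.5-marked promoters were marked in iPS and 77.5% in E14, so the iPS and E14 shares traded places. Marked in all 3 lines were 399 promoters, and 119 were marked in iPS and in neither ES line.

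Hox cluster genes, regulators of positional identity in the embryo, had median levels of 1.1 in E14, 2.01 in V6.5 and 1.64 in iPS over 31 promoters. The iPS level lay between both ES lines at 30 of these 31, against 7341 of all 15142 promoters. Hoxa9 read 1.91, 3.20 and 2.53 in E14, V6.5 and iPS, and Hoxa2 read 1.45, 2.58 and 2.14. Hoxc13 was the exception, at 0.32, 0.66 and 0.71. MEF1 stood lower at both Hoxa genes, with 0.66 at Hoxa2 and 1.08 at Hoxa9, and MEF2 read 1.19 at Hoxa2. Over the 31 promoters the medians were 1.22 in MEF1 and 1.68 in MEF2, both above that of E14. Lower MEF levels were thus not general to the Hox list. Among 92 homeobox and Pax regulators outside the clusters, the medians were 0.83 in E14, 1.61 in V6.5 and 1.23 in iPS. The iPS level lay between the ES lines at 86 of them. Pax3, a regulator of neural crest and muscle, read 1.41, 2.70 and 2.19, and Pax5, a regulator of B cells and midbrain, read 1.45, 2.54 and 2.13. The same order of medians, V6.5 above iPS above E14, was seen for T-box, forkhead, Sox and Gata, bHLH and Wnt genes and for genes of extraembryonic endoderm, where Sox17 read 1.85, 2.89 and 2.48. It was also seen for fibroblast, germ line, imprinted and axon guidance genes, so this order was not particular to developmental regulators. The position between both lines partly follows the scales of the arrays: with the common median absolute deviation, iPS lay below both ES lines at 11 of the 31 Hox and 26 of the 92 other homeobox promoters.

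**Figure D2:**
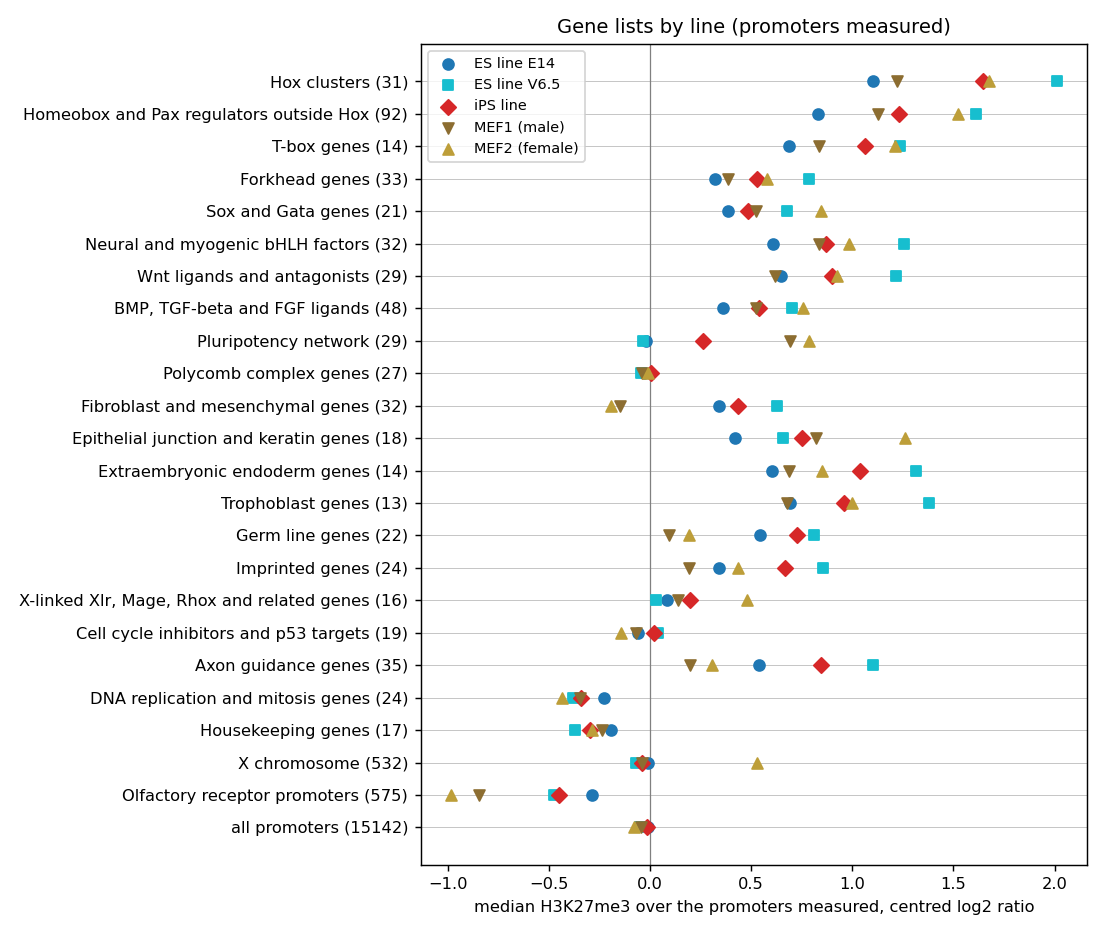
Median promoter H3K27me3 (centred log2 ratio, horizontal axis) of each gene list in the 5 lines, with the number of promoters measured in parentheses. The iPS median lies between the ES medians for the developmental lists and for others such as the fibroblast and imprinted lists. Lists with iPS above both include the pluripotency network (0.26 against -0.02 and -0.04) and the epithelial list (0.75 against 0.42 and 0.65).

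The largest differences between the ES lines gave the size of the yardstick. Il11, a cytokine, read 1.08 in E14 and 2.66 in V6.5, Hoxd10 read 1.12 and 2.67, and Tfap2d, a transcription factor of the AP-2 family, read 1.65 and 3.12. The iPS line read 1.88, 1.99 and 2.56 at these promoters. It lay between the ES lines at each of the 5 promoters with the largest excess in V6.5, which also included Tfap2b and Duoxa2. These were chosen for the widest gap between the ES lines, which favours such a position, so nothing is read from it. In the other direction the differences were smaller: Chrnb1, a subunit of the muscle acetylcholine receptor, read 0.22 in E14, -0.72 in V6.5 and 0.45 in iPS, and Nr1h4, the bile acid receptor, read 0.61, -0.32 and -0.15.

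No promoter was called different between iPS and ES cells. In limma, fitted over all 5 lines with 2 residual degrees of freedom, 0 of 15142 promoters (0%) passed an adjusted p under 0.05, and the smallest adjusted p was 0.9999. An unadjusted p under 0.05 was reached by 299 promoters, 1.97% of those tested. The median standard error of the difference was 0.17 log2 units. The fit assumes that the single iPS line varies like the ES and MEF lines, and with 1 line against 2 an exact permutation test cannot reach 0.05. At X-linked promoters the spread in the fit also holds the difference between the male and female MEF lines. No call was made under any of the 14 other settings tried, in which 160 to 1537 promoters had an unadjusted p under 0.05. Leaving out either MEF line gives the same fit as E14, V6.5 and iPS alone, so those settings are not separate checks.

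Few promoters put the iPS line clearly outside the range of the ES lines. By any amount, iPS lay above both ES lines at 4384 promoters (29% of all), below both at 3417 (22.6%) and between them at 7341. By at least 1 log2 unit it lay above both at 1 promoter (0.0066%), the X-linked G530011O06Rik, and below both at 0 (0%). By at least 0.5 it lay above both at 79 (0.522%) and below both at 9 (0.0594%). For comparison, E14 stood 0.5 units above the other 2 pluripotent lines at 8 promoters and below them at 400, and V6.5 above at 366 and below at 36, with 331 of the 366 on the first array. The balance of 79 to 9 depends on the scale: it was 96 to 48 with the common median absolute deviation, 49 to 36 after quantile normalisation and 50 to 2 with normexp background correction. Left to a single ES line, the counts were 253 above and 467 below V6.5, and 635 above and 40 below E14.

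Among the 12 promoters furthest above both ES lines were Sall4 and Tdgf1 of the pluripotency list. The 12 were chosen by their gap to the nearer ES line, so their difference is a description and no test applies to it. Sall4, a zinc finger transcription factor of pluripotent cells on chromosome 2, read -0.18 in E14, -0.33 in V6.5, 0.70 in iPS, 1.77 in MEF1 and 2.10 in MEF2. The iPS level exceeded the ES mean by 0.95 ± 0.19 (SE of the fit), and 9 of its 12 probes were above both ES lines. Tdgf1, also known as Cripto, a co-receptor for Nodal, read 0.04, -0.27, 0.80, 1.96 and 2.62 in the same order, a difference of 0.91 ± 0.31 with 7 of 8 probes above. At both genes the ES lines sat near 0, the MEF lines sat highest and iPS sat in between. The place of iPS above both ES lines follows from the choice. Both were H3K4me3-marked in iPS, at 1.90 for Sall4 and 3.17 for Tdgf1, and RNA of Sall4 was 3.58 and 2.57 in ES cells and 3.35 and 3.27 in iPS cells.

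Lsr, a lipoprotein receptor of epithelial tricellular junctions, read 0.05, -0.02, 0.89, 0.79 and 1.23 in E14, V6.5, iPS, MEF1 and MEF2. Ttll6, a tubulin polyglutamylase of cilia, read 0.15, 0.14, 0.91, 1.63 and 2.03. Klb, the co-receptor beta-klotho for endocrine fibroblast growth factors, read 0.40, 0.93, 1.67, 1.55 and 1.56, with all 8 probes above both ES lines. At all 3 genes both MEF lines were above both ES lines. Ckmt1 (a mitochondrial creatine kinase), Ppp1r14d (a phosphatase inhibitor), Slc26a3 (an anion exchanger), Sdr9c7 (a dehydrogenase of the epidermis) and Brs3 (an orphan bombesin receptor, on X) read between 0.51 and 0.97 in iPS. At 10 of the 12 promoters both MEF lines were above both ES lines, as they were at 24.9% of all promoters. The same ES values chose the 12, so nothing is read from this count. Tdgf1, Lsr, Klb, Ckmt1, Ppp1r14d and Sdr9c7 face a divergent gene, as do 2795 of all 15142 promoters. Their levels may thus also read the promoter of the facing gene.

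The other 2 of the 12 differed from this pattern. Zfp36l1, an RNA-binding protein that destabilises messenger RNAs, read 0.08 in E14, -0.19 in V6.5, 0.82 in iPS, -0.50 in MEF1 and -1.12 in MEF2, so iPS was the highest and the MEF lines the lowest. Its excess was largest upstream of the start, and its H3K4me3 level was 3.38 in iPS against 2.60 and 3.37 in the ES lines. G530011O06Rik read 0.03, 0.29, 1.40, -0.28 and 1.53, a difference of 1.24 ± 0.71, with iPS close to the female MEF line and all 8 probes above both ES lines. This SE pools the spread of the ES lines with that of the male and female MEF lines, which stood far apart at this gene. The RefSeq table lists this gene on X and Y, so its probes may not read 1 locus.

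The 250 bases before the RefSeq start of Tdgf1, Lsr, Zfp36l1 and Wls (the last described among the promoters below both ES lines) are shown as examples of promoters named here, and Sall4 is not shown. The levels are means over probes on both sides of the start, so a difference need not lie in these bases. They are from RefSeq, build GRCm38.p6, read 5′ to 3′ on the gene's strand, and capitals mark CG dinucleotides, the same on both strands. Tdgf1 lies on the minus strand at chr9:110946159-110946408, Lsr on the minus strand at chr7:30973470-30973719, Zfp36l1 on the minus strand at chr12:80113014-80113263 and Wls on the plus strand at chr3:159839400-159839649.
Tdgf1: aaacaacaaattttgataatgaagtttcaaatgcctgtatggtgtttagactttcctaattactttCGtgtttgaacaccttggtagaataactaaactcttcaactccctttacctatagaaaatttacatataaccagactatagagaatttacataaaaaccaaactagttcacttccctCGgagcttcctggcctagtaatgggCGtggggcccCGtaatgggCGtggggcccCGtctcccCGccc
Lsr: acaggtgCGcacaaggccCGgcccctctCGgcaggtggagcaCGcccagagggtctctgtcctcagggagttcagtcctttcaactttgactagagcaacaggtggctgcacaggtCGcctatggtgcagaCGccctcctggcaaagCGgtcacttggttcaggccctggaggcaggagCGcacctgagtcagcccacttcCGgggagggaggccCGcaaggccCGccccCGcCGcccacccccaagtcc
Zfp36l1: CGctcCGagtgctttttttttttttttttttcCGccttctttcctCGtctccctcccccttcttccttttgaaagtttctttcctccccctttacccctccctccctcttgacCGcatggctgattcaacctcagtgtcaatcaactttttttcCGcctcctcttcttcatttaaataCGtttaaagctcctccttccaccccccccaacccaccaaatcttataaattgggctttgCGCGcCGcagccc
Wls: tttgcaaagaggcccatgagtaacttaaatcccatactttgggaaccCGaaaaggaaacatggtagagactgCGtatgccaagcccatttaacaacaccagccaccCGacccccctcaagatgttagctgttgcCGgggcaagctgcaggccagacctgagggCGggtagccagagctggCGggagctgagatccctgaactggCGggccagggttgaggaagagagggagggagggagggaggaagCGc
These windows hold 7, 13, 10 and 8 CG dinucleotides. Of 9471 promoters matched in the RefSeq table, 68.2% hold at least 7 and 50.4% at least 13 in this length, and the median is 13.

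**Figure D3:**
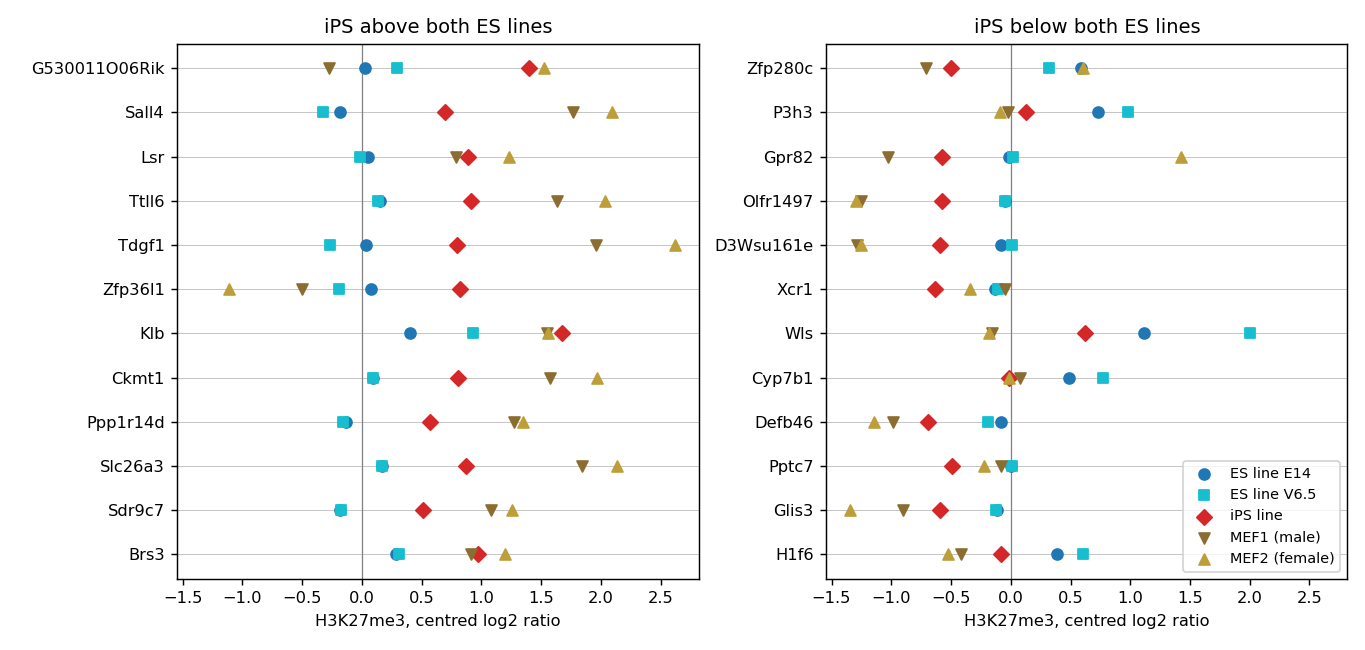
Promoter H3K27me3 (centred log2 ratio, horizontal axis) in each of the 5 lines for the 12 promoters with the largest gap above both ES lines (left) and the 12 with the largest gap below (right). On the left both MEF lines lie above both ES lines at 10 promoters (24.9% of all promoters), and on the right below both at 9 (35.0% of all), with the ES values shared with the choice.

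The 12 promoters furthest below both ES lines had smaller gaps. Wls, which escorts Wnt proteins out of the cell, read 1.12 in E14, 2.01 in V6.5, 0.62 in iPS, -0.16 in MEF1 and -0.18 in MEF2, with 11 of 12 probes below both ES lines. The iPS level of Wls lay between the ES and MEF lines. Zfp280c, an X-linked zinc finger gene, read 0.59, 0.32, -0.50, -0.71 and 0.60, and Cyp7b1, an oxysterol hydroxylase, read 0.48, 0.77, -0.01, 0.07 and -0.02. Gpr82, an X-linked orphan receptor, read -0.02, 0.02, -0.57, -1.03 and 1.42, so the male and female MEF lines lay on opposite sides of it. Glis3 (a zinc finger factor), H1f6 (the testis linker histone), Xcr1 (a chemokine receptor), Olfr1497, Defb46, D3Wsu161e and Pptc7 (a mitochondrial phosphatase) read between -0.69 and -0.08 in iPS. H1f6 read 0.39 in E14 and 0.61 in V6.5. The others read between -0.19 and 0.01 in the ES lines, so their level was not raised in ES cells to begin with. Both MEF lines were below both ES lines at 9 of the 12 and at 35.0% of all promoters, a count that again shares the ES values used in the choice.

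Single probes decided 2 of these 24 promoters. P3h3, a collagen prolyl hydroxylase, read 0.73, 0.98, 0.13, -0.03 and -0.09 in the 5 lines. Its gap of 0.60 below the nearer ES line rested on 1 probe at -4.06 in iPS and was 0.05 without it. Pptc7 went from a gap of 0.49 to 0.07 in the same way. At the other 22 promoters the gap without the most deviant probe was at least 0.37. The iPS level stayed outside both ES lines for all 24 under each of the 8 other settings of scale, background, probes and window. The setting of at least 5 probes could not change this, because the 24 were chosen with that minimum.

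**Figure D4:**
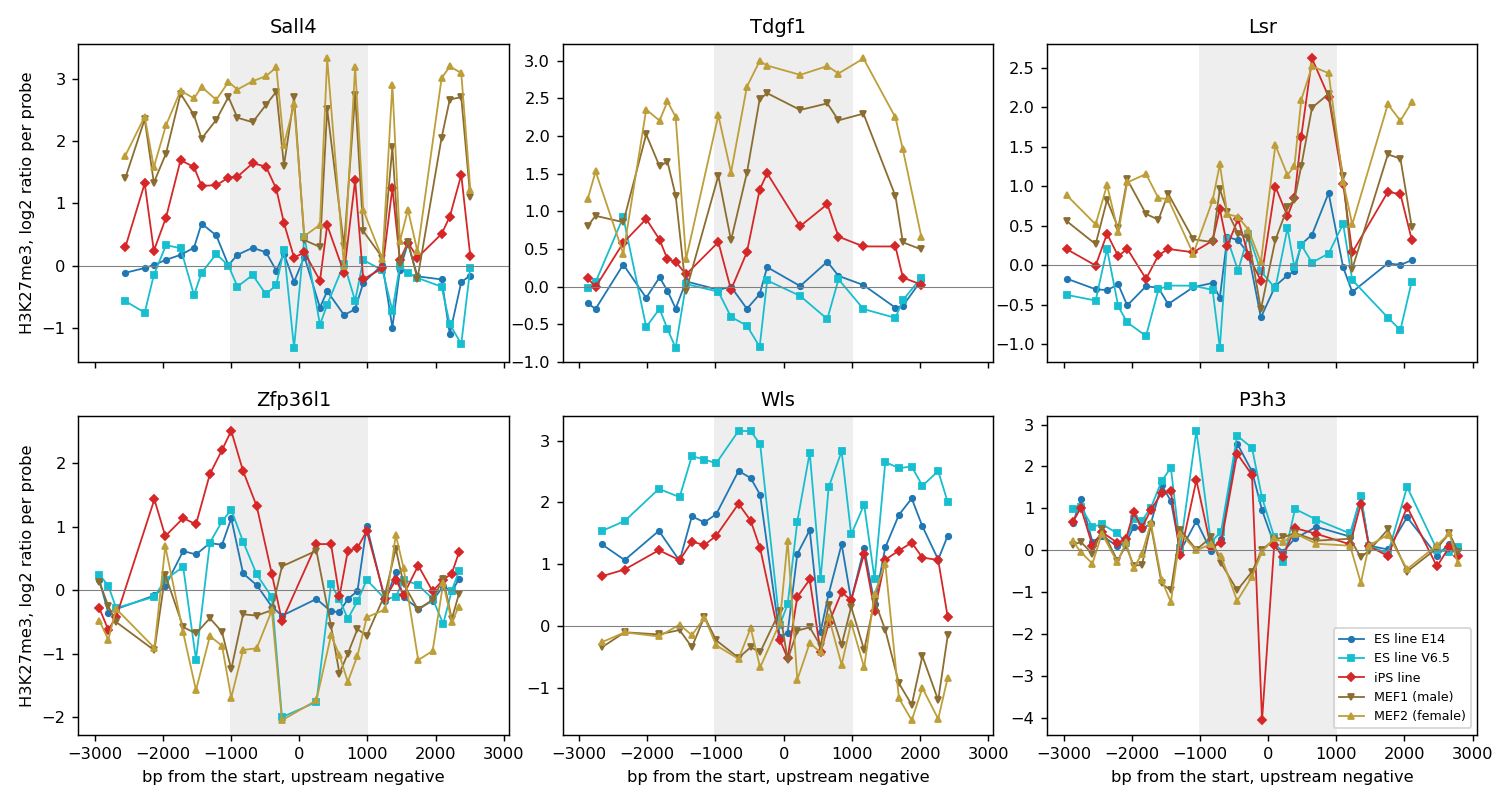
H3K27me3 log2 ratio of each probe (vertical axis) against its distance from the start in bp (upstream negative) at 6 promoters in the 5 lines, with the 1000 bp window shaded. At Sall4 and Tdgf1 most window probes of iPS lie above both ES lines (9 of 12 and 7 of 8), at Zfp36l1 it is highest upstream, and at P3h3 the low iPS mean comes from 1 probe at -4.06.

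The promoters that carried more H3K27me3 in fibroblasts than in ES cells were then examined as sets, each chosen on 1 ES line and 1 MEF line and then read in iPS and the other ES line. At 163 promoters MEF1 lay at least 1 log2 unit above V6.5. Their median level was 0.03 in E14, -0.12 in V6.5, 0.37 in iPS, 1.13 in MEF1 and 1.31 in MEF2. The iPS level exceeded that of E14, which took no part in the choice, by a median of 0.32 (quartiles 0.18 to 0.46), and it did so at 155 of 163 promoters (95.1%), against 7997 of all 15142 (52.8%). E14 exceeded V6.5 by a median of 0.13 at the same promoters, and MEF2 exceeded E14 by 1.22. The median excess was 0.33 on the first array and 0.31 on the second, and 0.32 on the autosomes.

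Choosing with the other ES line gave a like value. At 152 promoters MEF1 lay at least 1 unit above E14, and 103 of them were in the first set. There the medians were 0.12 in both ES lines, 0.54 in iPS, 1.32 in MEF1 and 1.59 in MEF2, and iPS exceeded V6.5 by a median of 0.36, at 141 of 152 promoters (92.8%, against 53.6% of all). This comparison is within the date of feature extraction that iPS and V6.5 share. The excess was 0.25 when MEF2 and V6.5 chose 420 promoters and 0.16 when MEF2 and E14 chose 570. Members of both sets included Tdh, threonine dehydrogenase of ES cells (-0.05, -0.16, 0.43, 1.36 and 2.08 in E14, V6.5, iPS, MEF1 and MEF2), and Nodal, a signal of the early embryo (0.11, -0.13, 0.45, 1.36 and 2.19). At Grhl3, an epidermal transcription factor, iPS was at the level of E14 (0.29, -0.08, 0.26, 1.45 and 1.80).

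**Figure D5:**
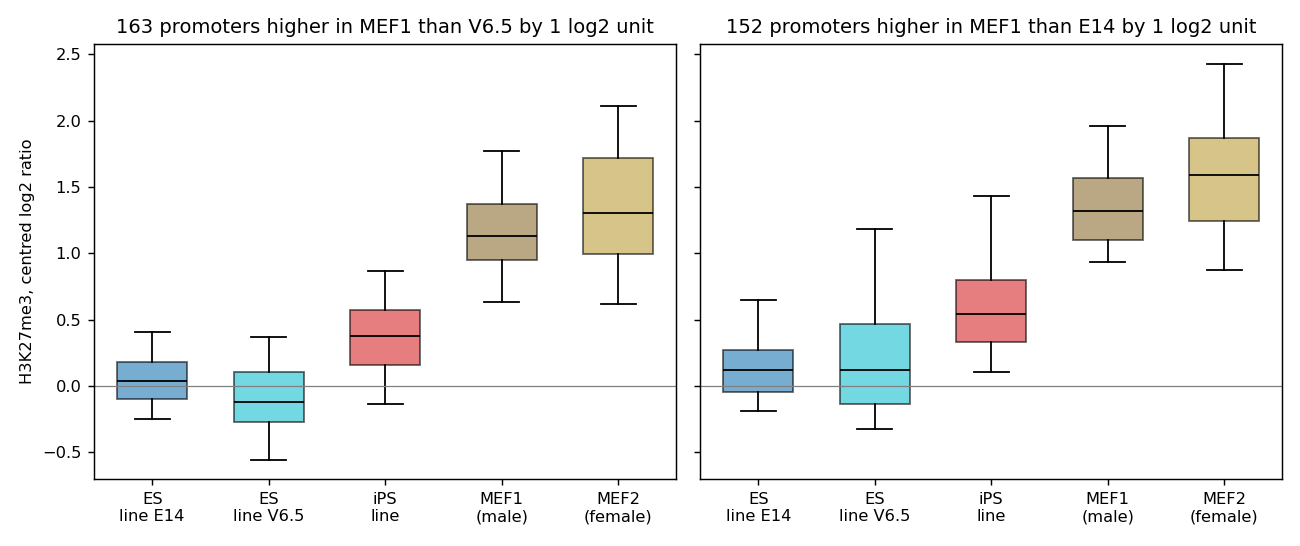
Promoter H3K27me3 (centred log2 ratio, vertical axis) in the 5 lines at promoters at least 1 log2 unit higher in MEF1 than in V6.5 (left, 163 promoters) or than in E14 (right, 152). Boxes span the quartiles with the median as a line, and whiskers run from the 5th to the 95th percentile. The iPS medians, 0.37 and 0.54, lie above both ES medians and below both MEF medians.

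The reverse sets gave values of both signs. At 778 promoters MEF1 lay at least 1 unit below V6.5, and iPS exceeded E14 there by a median of 0.25, away from the MEF level, a sign that turned to -0.12 with the common median absolute deviation and to -0.05 after quantile normalisation. At 262 promoters where MEF1 lay 1 unit below E14, iPS was below V6.5 in the median (-0.18), toward the MEF level, and above it at 68 (26.0%).

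Fibroblast markers were read beside these sets. In RNA, iPS was lower than both ES arrays for 7 of the 8 markers and higher for Lum, which was below background in both. In H3K4me3, iPS was above both ES lines at 6 of 7 fibroblast marker promoters. The medians were 0.50 in E14, 0.27 in V6.5, 0.67 in iPS, 1.37 in MEF1 and 1.60 in MEF2. The margin was small at Pdgfra, with 0.88 in iPS against 0.81 in V6.5. No share over all genes or promoters is given for these RNA and H3K4me3 counts, so nothing is read from them. In H3K27me3, the iPS line lay below both ES lines at Lum alone of the 7, and the medians were 0.66, 1.19 and 0.99 in E14, V6.5 and iPS against -0.10 and -0.16 in the MEF lines. The ES cells read for RNA were feeder dependent, and the part of fibroblast chromatin in the H3K27me3 levels was not tested. Among 32 fibroblast and mesenchymal genes, iPS was above both ES lines at 4 (12.5%, against 29% of all promoters), below both at 7 (21.9%, against 22.6%) and between them at 21. The levels were 0.21, 0.43 and -0.17 at S100a4 and 0.16, 0.41 and -0.10 at Vim, the gene of vimentin, in E14, V6.5 and iPS. With the common median absolute deviation it was below at 18.

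At most promoters of the pluripotency network the iPS line lay above both ES lines. Of 29 promoters measured, iPS was above both ES lines at 18 (62.1%, against 29% of all promoters) and below both at 5, and these counts were the same under the common median absolute deviation and quantile normalisation. The median was -0.02 in E14, -0.04 in V6.5, 0.26 in iPS, 0.69 in MEF1 and 0.79 in MEF2. Pou5f1 read -0.24, -0.46, 0.13, 0.74 and 0.80 in these lines, and Eras, an X-linked Ras of ES cells, read -0.03, -0.09, 0.40, 1.14 and 1.52. None of the 29 reached 1 in iPS or E14. Sox2 (-0.23, -0.04 and -0.00 in E14, V6.5 and iPS), Klf2 (-0.02, 0.04 and 0.02) and Klf4 (0.08, 0.22 and 0.06) lay near both ES lines, and Dppa3, a gene of the germ line and oocyte, was lower in iPS (0.40) than in V6.5 (1.53). In limma, 3 of the 29 had an unadjusted p under 0.05 and 0 an adjusted one.

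Epithelial genes, silent in fibroblasts, showed a similar order. Of 18 promoters, iPS was above both ES lines at 11 (61.1%, against 29% of all promoters) and below both at 1 (5.6%, against 22.6%). Cdh1, the gene of E-cadherin, read 0.07 in E14, 0.16 in V6.5, 0.40 in iPS, 1.26 in MEF1 and 1.53 in MEF2, and Cldn7, a tight junction claudin, read 0.62, 0.89, 1.30, 1.32 and 2.14. Krt19, a keratin, was above both ES lines in iPS (0.74 against 0.42 and 0.58) while the MEF lines were low (0.23 and 0.16). The genes of the Polycomb machinery had medians near 0 in every line. Within that list Pcgf5, a subunit of repressive complex 1, read 0.28, 0.47 and 0.83 in E14, V6.5 and iPS, and Ezh2 read -0.20, -0.10 and -0.19.

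Imprinted and X-linked promoters were examined for states that a line can carry through culture. Of 24 imprinted promoters iPS was above both ES lines at 5 (20.8%, against 29% of all promoters) and below both at 3 (12.5%, against 22.6%). Slc22a18 read 0.15 in E14, -0.07 in V6.5, 0.69 in iPS, 0.61 in MEF1 and 0.62 in MEF2, whereas its neighbour Cdkn1c, a cell cycle inhibitor, read 0.33, 0.96 and 0.73 in the pluripotent lines. Of 532 X-linked promoters iPS was above both at 181 (34.0%) and below both at 139 (26.1%), against the same 29% and 22.6%. At the 97 X promoters where the female MEF line exceeded the male by 1 unit, as H3K27me3 covers the inactive X, the medians were -0.10 in E14, -0.21 in V6.5, -0.26 in iPS, -0.28 in MEF1 and 1.01 in MEF2. The iPS level was thus that of the lines without a raised X. Xist, the RNA that coats the inactive X, was -5.51 and -3.88 on the ES arrays, -0.30 and -0.41 on the iPS arrays and 4.00 and 2.67 on the MEF arrays (limma adjusted p = 0.088 for iPS against ES).

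H3K4me3 and RNA gave no call at the named promoters in the fits over all lines. In limma on H3K4me3, 0 of 15142 promoters (0%) passed an adjusted p under 0.05, with 215 at an unadjusted p under 0.05; without E14 the count was 5 and without V6.5 it was 3, none of them at a named promoter. In RNA, 26 of 17318 genes (0.15%) passed, 0 of them among 63 named genes with RNA. At some genes low in MEFs the 2 MEF arrays lay far apart, as at Ppp1r14d (-5.21 and 0.50). Its SE was 1.62 in the fit over all arrays and 0.29 with the ES and iPS arrays alone. The lack of a call at such genes thus does not show equal RNA in iPS and ES cells. Leaving out either MEF array gives the same fit as the ES and iPS arrays alone, because 1 MEF array adds no measure of spread. With the ES and iPS arrays alone the count was 2735 genes (15.8%), 17 of the 63 named genes among them. It was 0 without either ES array, and 14 and 13 without the first and second iPS array. In that fit RNA of Klb was lower in iPS (-2.20 ± 0.30 on the log2 scale, SE, adjusted p = 0.0156), with arrays at -2.38 and -1.77 in ES cells and -4.17 and -4.38 in iPS cells. Ttll6 was lower (-1.73 ± 0.36, adjusted p = 0.0364), as was P3h3 (-1.24 ± 0.26, adjusted p = 0.0389), and Cyp7b1 was higher (1.36 ± 0.26, adjusted p = 0.0309). So H3K27me3 was higher and RNA lower at Klb and Ttll6, and H3K27me3 lower and RNA higher at Cyp7b1. The H3K27me3 gap of P3h3 rests on 1 probe. At other named genes called in this fit the directions were mixed. Where iPS was above both ES lines in H3K27me3, RNA was higher at Pcgf5 (1.15), Gata1 (1.58), Maged2 (1.95) and Maged1 (1.47). It was lower at Neurod1 (-2.05), Lama1 (-2.83), Hhex (-1.71) and Pmaip1 (-1.37). Gata1 was near the floor in ES cells, at -5.26 and -4.82. At S100a4 and Plxnb1 both readouts were lower, with RNA at -1.21 and -2.27. At Il11, Duoxa2 and Phlda2 the H3K27me3 level of iPS lay between the ES lines. A relation between the mark and RNA was not tested. Nothing in the labels says that the 2 arrays of a kind came from separate cultures, so these p-values measure only the spread between arrays.

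The promoters with more H3K27me3 in MEF1 held few CG dinucleotides. Of the 163 promoters, 102 matched the RefSeq table, with a median of 3 CG dinucleotides in the 250 bases before the start, and 37.3% held 5 or more, against 13 and 74.8% over all 9471 matched promoters. Promoters marked in V6.5 had a median of 13, and 86.1% held 5 or more. The promoters with iPS at least 0.5 above both ES lines had a median of 5 over 56 matched.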

How the data were processed

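The deposited scanner files hold the spot intensity of both channels, to which the authors applied background subtraction, spatial detrending and a linear dye normalisation in Agilent Feature Extraction 9.1.3.1, per the file headers. Value tables that the authors deposited hold the log10 ratio of these signals, without centring, and served as an alternative. Cy5 was the immunoprecipitate per the label fields; for H3K27me3 of MEFs the text on labelling has Cy3 instead, and the field was followed because these arrays correlate positively with the others. The array coordinates have a build not given in the sources used here. The start was placed between probes annotated as promoter and as inside the gene, and promoters with under 3 probes or a gap over 1000 bp at the start were left out. Divergent gene pairs account for 2795 promoters, and 42 have no probe of their own. RNA is log2 of the deposited intensity minus the 75th percentile. For RNA the values deposited as a table and the scanner files disagree on which arrays are ES and which MEF, and the table was followed.

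Fits were made in R 4.3.3 by lmFit and eBayes of limma 3.58.1, with Benjamini-Hochberg adjustment over all features, checked on simulated data. Tables were made with Python 3.11.15, numpy 2.4.6, pandas 2.3.3, scipy 1.17.1 and the R package data.table (1.17.8), and figures with matplotlib 3.10.9. The members, 21 gene lists, marker lists and comparisons were chosen with earlier results of these data known. Named were the 12 promoters in each direction with the largest gap between iPS and the nearer ES line (at least 5 probes, none sharing all probes), the 5 in each direction with the largest E14 and V6.5 difference, and in each list the 2 with the largest gap, with the first 4 measured for 5 lists. Further list members are examples chosen after their values were seen. The number of lines limits the precision.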

Additional observations from a re-analysis of the deposited data

How the results depend on the processing

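The limma fit gave 0 calls in all 15 settings, although leaving out either MEF line is the same fit as E14, V6.5 and iPS alone. No fit with the date as a block could be made, because 0 promoters had an estimable correlation within date for 5 lines in 3 groups on 3 dates. No paired analysis was possible because each line is 1 replicate. Promoters with iPS 1 unit below both ES lines numbered 2 with a common median absolute deviation and 1 with a 500 bp window, and 2 to 7 without either ES line. Those 1 unit above numbered 2 with the common deviation, 0 with normexp, 2 with the 500 bp window, 2 with probe medians and 6 without either ES line. By 0.5 units, those below numbered 48 with the common deviation, 36 with quantile normalisation, 2 with normexp, 15 with the 500 bp window, 19 with probe medians and 40 to 467 without either ES line. Those above numbered 49 with quantile normalisation, 50 with normexp and 253 to 635 without either ES line. The ES lines lay 1 unit apart at 6 promoters with the common deviation, 1 after quantile normalisation, 59 with normexp and 465 with probe medians. The share of V6.5-marked promoters marked in iPS was 75.6% with the common deviation, 66.6% after quantile normalisation, 66.3% with normexp, 60.3% with bright unsaturated probes, 59.3% with the 500 bp window, 76.7% at a threshold of 0.75 and 40.1% at 1.5. The share of E14-marked promoters was 81.9%, 83.6%, 97.2% (500 bp), 96.1% (probe medians) and 97.4% (1.5). At promoters higher in MEF1 than E14, the iPS excess over V6.5 was 0.23 with normexp and 0.16 when MEF2 chose. Named genes with an RNA call numbered 17 with the ES and iPS arrays only and 0 to 17 without any one array. The smaller gap, the MEF sets and leave-one-out fits of H3K4me3 and RNA were chosen after seeing the data. Apart from the scales named, the causes were not tested. The gene list counts stayed within 1.5 times in 215 of 336 alternatives.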

Other observations

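Probes outside the promoter windows gave the same closeness of the pluripotent lines. At 125413 probes annotated as inside genes and outside these windows, r was 0.921 for iPS and E14, 0.921 for iPS and V6.5 and 0.911 for E14 and V6.5. At 182259 probes annotated as promoter and outside the windows of the promoters kept, r was 0.900, 0.903 and 0.891. The iPS line lay 1 log2 unit above both ES lines at 296 and 382 of these probes and below both at 112 and 98.

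The H3K4me3 arrays, put to the same question, gave values beside those of H3K27me3. At 277 promoters with H3K4me3 at least 1 unit higher in MEF1 than in V6.5, iPS exceeded E14 by a median of 0.20, while E14 exceeded V6.5 by 0.18. At 253 promoters chosen on E14, iPS exceeded V6.5 by 0.37, while V6.5 lay below E14 (-0.10). In the reverse sets, the median of iPS minus the other ES line was 0.0072 at 516 promoters chosen on V6.5 and -0.22 at 271 chosen on E14. Among the promoters marked with H3K27me3 in iPS and in neither ES line, outside the rule for named promoters, were Hesx1, a regulator of forebrain and pituitary (0.94 in E14, 0.99 in V6.5 and 1.54 in iPS), and Gcm2, a parathyroid factor (0.45, 0.29 and 1.08). Both are named here after their values were seen.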
